A study of Arabidopsis thaliana with 6 samples.

Results

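The 39 genes described here drive the cell cycle and DNA replication in Arabidopsis thaliana, and were followed by polyA RNA-seq of roots in a 35S:NPC48 line and in wild type. They are a list of gene IDs, matched in the count files: cyclins of types A, B and D, cyclin-dependent kinases, the MCM2 to MCM7 helicase, PCNA, the licensing factors CDC6 and CDT1A, the E2F and retinoblastoma switch, the inhibitor KRP2 and the cytokinesis protein KNOLLE. All 39 were found among the 29613 gene IDs of the files and all 39 passed the filter on low counts, which kept 19608 genes. By the phase in which they are known to act, 13 were placed in the class of G1 entry, 11 in S phase and 15 in G2 and mitosis. The 3 libraries of the 35S:NPC48 line come from plants that carry NPC48, a long non-coding RNA, behind the 35S promoter of cauliflower mosaic virus, which is strong and active in most tissues. The 3 libraries of wild type come from Col-0, an ecotype label that is given for wild type alone. By the labels, no treatment was applied, and all plants grew on the same medium with 500 µM phosphate up to growth stage Boyes 1.0. Humidity was given as 33%, with days of 16 h light at 24 °C and nights of 8 h at 21 °C. The labels name 1 overexpressing line and do not say whether plants were pooled or whether replicates were grown apart, so the p-values speak only of the spread among libraries, which may be technical.

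Plant cells enter the cycle when D-type cyclins, bound to the kinase CDKA, phosphorylate the retinoblastoma protein RBR1 and release E2F factors, which switch on genes for DNA synthesis. CDC6 and CDT1 load the ring-shaped MCM helicase onto origins, and the sliding clamp PCNA holds the polymerases on the template. Cyclins of types A and B, with the plant-specific B-type kinases, then take cells through G2 and mitosis, and many of their genes carry a promoter element read by MYB proteins of the MYB3R family. In roots, dividing cells sit mainly in the meristem at the tip and in young lateral roots.

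Replicates 1, 2 and 3 of each genotype carry the letters A, B and D in their titles. Total counts were 20789863, 9479418 and 20120659 in 35S:NPC48 B, A and D and 21055370, 21232247 and 23830604 in wild type B, A and D, so that 35S:NPC48 A was the shallowest library. Levels are given as CPM, read counts set against the library size after TMM scaling, which corrects library sizes for differences in composition. The B libraries of both genotypes stood apart from the other 4. Of 12 genes known to respond to phosphate starvation, 11 were tested and all 11 were higher in B, with a median log2 difference of 4.19, although the labels give B the same phosphate supply. The summed level of the 12 was 4607 and 5280 CPM in 35S:NPC48 B and wild type B, against 285 to 311 CPM in the other libraries. Replicate B is therefore set against A and D below, and genotypes are compared over all 6 libraries, within the letters and without B. Root markers such as PYK10 were high in every library, with 4 of them summing to 8756 to 13517 CPM, while the shoot meristem genes STM, WUS and CLV3 were at 0 counts in 5 libraries and summed to 0.0421 CPM in wild type D. Photosynthesis genes of the shoot, 10 in number, summed to 64.9, 127 and 57.6 CPM in 35S:NPC48 B, A and D, against 38.6, 48.8 and 109 CPM in wild type B, A and D.

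Short sequences known from cell cycle promoters were looked up in the promoters of the members, and 4 promoters are shown because the values below turn on these genes. MCM3 is the S-phase gene, and CDKB2;2 and CYCB1;3 are the mitotic genes, with the smallest p for a difference between replicate B and replicates A and D. CYCB2;3 is the member with the largest difference between genotypes. Each run is the 250 bases before the annotated gene start in assembly TAIR10.1, read from the RefSeq genome and printed in the direction of transcription. All 4 genes lie on the minus strand: MCM3 at chr5:18773707-18773956, CDKB2;2 at chr1:7294747-7294996, CYCB1;3 at chr3:3627274-3627523 and CYCB2;3 at chr1:7137829-7138078. Capitals mark matches on either strand to the E2F motifs TTTCCCGC, TTTGGCGC and TTTGGCGG, to the mitosis-specific activator motif TCNAACGG and its core AACGG, and to the site TGGGCC known to bind TCP factors. A match on the opposite strand reads as its reverse complement.
MCM3: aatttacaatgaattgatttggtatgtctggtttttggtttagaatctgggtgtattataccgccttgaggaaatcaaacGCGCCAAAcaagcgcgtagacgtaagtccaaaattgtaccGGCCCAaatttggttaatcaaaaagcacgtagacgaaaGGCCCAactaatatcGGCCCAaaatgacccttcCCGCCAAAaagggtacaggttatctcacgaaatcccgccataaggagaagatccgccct
CDKB2;2: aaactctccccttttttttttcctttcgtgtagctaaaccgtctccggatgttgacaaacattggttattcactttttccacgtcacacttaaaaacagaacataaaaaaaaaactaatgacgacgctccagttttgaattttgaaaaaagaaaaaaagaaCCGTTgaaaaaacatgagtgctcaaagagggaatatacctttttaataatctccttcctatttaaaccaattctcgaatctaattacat
CYCB1;3: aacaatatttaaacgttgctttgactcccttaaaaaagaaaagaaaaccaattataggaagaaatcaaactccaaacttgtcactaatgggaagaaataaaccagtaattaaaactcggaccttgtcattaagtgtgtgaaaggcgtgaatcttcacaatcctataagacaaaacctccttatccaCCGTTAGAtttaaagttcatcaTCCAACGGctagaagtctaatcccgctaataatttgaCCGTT
CYCB2;3: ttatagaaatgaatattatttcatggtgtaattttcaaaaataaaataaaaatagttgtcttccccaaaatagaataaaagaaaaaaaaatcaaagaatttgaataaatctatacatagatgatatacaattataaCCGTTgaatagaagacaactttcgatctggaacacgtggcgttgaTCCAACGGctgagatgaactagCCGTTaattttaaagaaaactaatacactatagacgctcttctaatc

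In the MCM3 promoter the match to TTTGGCGC began 170 bases and the match to TTTGGCGG 59 bases before the start, with TGGGCC at 130, 92 and 77 bases. CYCB1;3 held TCNAACGG at 64 and 42 bases, on opposite strands, and a further core AACGG at 5 bases. CYCB2;3 held TCNAACGG at 69 bases and further cores at 114 and 47 bases. CDKB2;2 held a core alone, at 89 bases.

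Over windows of 300 bases, 250 before to 50 after the start, at least 1 of the 3 E2F motifs stood in 5 of 11 S-phase promoters, those of MCM2, MCM3, MCM4, MCM5 and MCM6. It stood in 2 of 13 promoters of the G1 class, those of RBR1 and CYCD3;3, and in 0 of 15 of the mitotic class, against 1.88% of 27443 protein-coding promoters. TCNAACGG stood in 6 of 15 mitotic promoters, those of CYCA1;1, CYCB1;2, CYCB1;3, CYCB2;1, CYCB2;2 and CYCB2;3, and in 0 of the other 24 members, against 2.53% of all. Outside the members, TCNAACGG stood in 7 of 13 promoters of replication-coupled histone genes and 6 of 30 of further genes of mitosis and cytokinesis. For further genes of DNA replication and of G1 and S control, it stood in 1 of 42 and 0 of 29. Its core AACGG, which lies inside it, was present in 10 of 15 mitotic promoters, 4 of 11 of S phase and 4 of 13 of the G1 class, against 24.7% of all. TGGGCC stood in 8 of 11 S-phase promoters, 2 of 13 of the G1 class and 1 of 15 of the mitotic class, against 15.5% of all. These are matches of letters, and binding was not measured.

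In edgeR at an adjusted p under 0.05, 11 of 15 mitotic genes were called higher in replicate B than in A and D. The same held for 8 of 11 genes of S phase and 1 of 13 of G1 entry, against 10.5% of all tested genes. The fitted difference was above 0 for all 15 mitotic and all 11 S-phase genes, and for 8 of 13 of G1 entry. The median difference was 1.70-fold for the mitotic class (log2 0.76) and 1.46-fold for the S-phase class (log2 0.55), against log2 0.17 for the G1 class and −0.01 for all tested genes. Summed over the class, the mitotic genes stood at 392, 220.2 and 238 CPM in 35S:NPC48 B, A and D, against 411, 249.6 and 228 CPM in wild type B, A and D. The S-phase genes summed to 249, 173 and 160.2 CPM in 35S:NPC48 B, A and D, against 264, 201 and 157 CPM in wild type B, A and D. The genes of G1 entry summed to 278, 257 and 285 CPM in 35S:NPC48 B, A and D, against 279, 281 and 265 CPM in wild type B, A and D, with no gap between B and the rest.

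In edgeR's quasi-likelihood test with Benjamini-Hochberg adjustment over all tested genes and a threshold of 0.05, 20 of 39 members (51.3%) were higher in B and 0 were lower, where 10.5% of all tested genes were higher and 9.27% lower. The share called higher was 73.3% of the mitotic class, 72.7% of the S-phase class and 7.69% of the G1 class, the last near that of all genes. At an unadjusted p under 0.05, 29 members were higher and 1, CDKA;1, was lower, among 6716 genes. DESeq2 and limma-voom called 23 and 24 members higher, among 2180 and 2199 genes, and 0 lower, among 1952 and 1811 genes. All 26 genes of S phase and of G2 and mitosis stood higher in B than in both A and D within 35S:NPC48 and within wild type. The share of all tested genes for which this held was not taken. Both B libraries lay above all 4 other libraries for 29 of 39 members (74.4%), against 21.5% of tested genes. In bulk roots, more cells in a phase and more RNA per cell cannot be told apart.

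**Figure D1:**
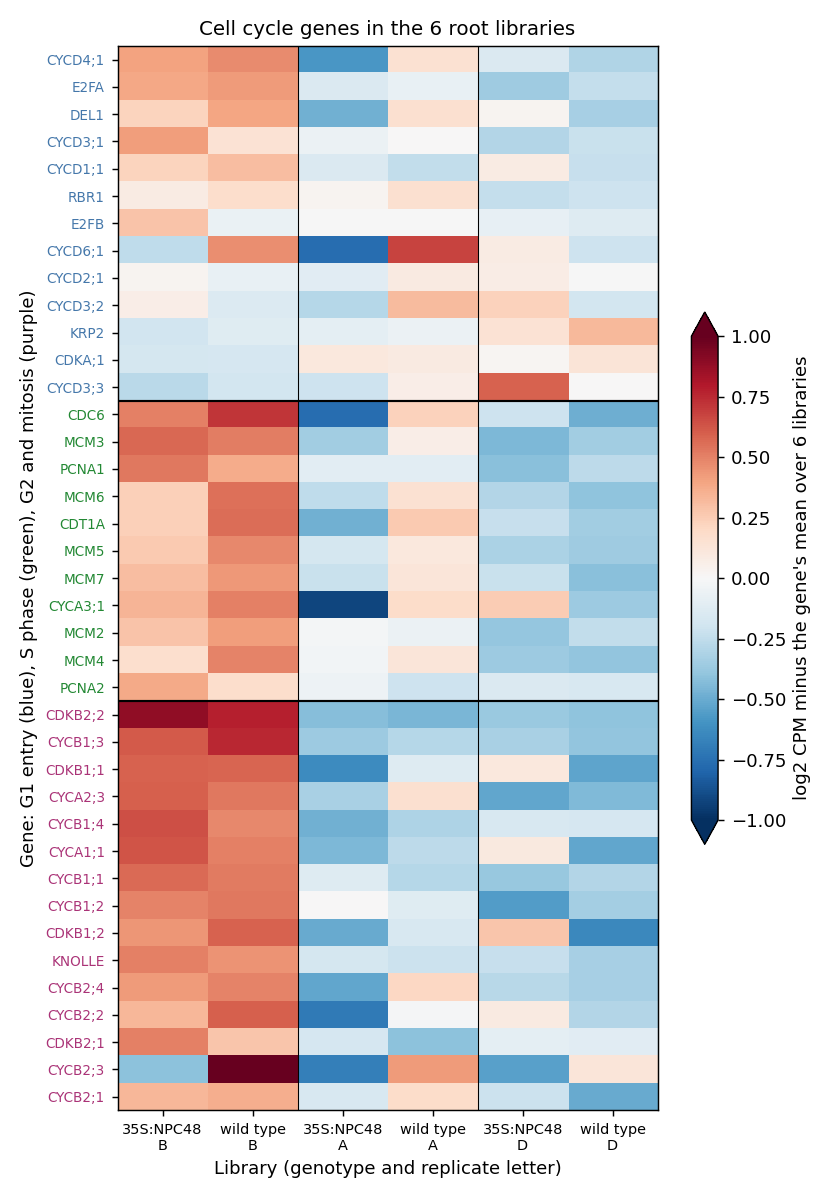
Level of each of the 39 members (rows, by phase class and then by the difference between B and the other replicates) in the 6 libraries (columns), as log2 CPM minus the gene's own mean over the libraries. Colours beyond 1 or −1 are capped. The 2 columns of replicate B are red for nearly all genes of S phase and of G2 and mitosis, CYCB2;3 in 35S:NPC48 B being the exception, and mixed for G1 entry.

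D-type cyclins couple growth signals to G1 entry. Of the 7 among the members 0 were called by edgeR, with log2 differences of B over A and D from −0.37 for CYCD3;3 to 0.64 for CYCD4;1. DESeq2 and limma-voom called 0 as well, and 3 had an unadjusted p under 0.05 in edgeR, CYCD1;1, CYCD3;1 and CYCD4;1. CYCD3;1 (AT4G34160), the cytokinin-responsive D cyclin, stood at 16.1 CPM in 35S:NPC48 B and 13.3 CPM in wild type B. Its levels were 11.5 and 9.76 CPM in 35S:NPC48 A and D and 12.02 and 10.3 CPM in wild type A and D. Both B values lay above the other 4, but the log2 difference of 0.43 ± 0.16 (SE) had an adjusted p of 0.0979. CYCD1;1 missed the threshold narrowly, at 0.40 ± 0.13 with an adjusted p of 0.0522, and passed it with the replicate letter as a block (adjusted p 0.0330). CYCD6;1 (AT4G03270), a cyclin of formative divisions in the root ground tissue, had the fewest counts, as few as 4 in a library, and 0.426 to 1.34 CPM.

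The kinase CDKA;1 (AT3G48750), which partners the D cyclins, and the kinase inhibitor KRP2 (AT3G50630) were the 2 members with both B libraries below the other 4. The kinase stood at 53.1 CPM in 35S:NPC48 B and 53.3 CPM in wild type B, against 64.7 and 60.8 CPM in 35S:NPC48 A and D and 63.7 and 65.7 CPM in wild type A and D. The log2 differences of the kinase and the inhibitor were −0.26 ± 0.11 and −0.25 ± 0.15, and neither passed the test, with adjusted p of 0.128 and 0.275. Of the E2F and retinoblastoma group, E2FA (AT2G36010), an activator of S-phase genes, was called. It stood at 7.58 CPM in 35S:NPC48 B and 7.82 CPM in wild type B, against 5.22 and 4.50 CPM in 35S:NPC48 A and D and 5.48 and 4.89 CPM in wild type A and D. The B libraries did not overlap with the others, and the log2 difference was 0.62 ± 0.19 with an adjusted p of 0.0445. E2FA was the 1 called member that DESeq2 did not call, with an adjusted p of 0.0708. The other activator E2FB had 0.17 ± 0.18, the repressor RBR1 0.19 ± 0.14 and the atypical E2F DEL1 0.44 ± 0.22, and none of these 3 was called.

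In S phase, 5 of 6 subunits of the MCM helicase and both PCNA genes were called. MCM3 (AT5G46280) stood at 26.5 CPM in 35S:NPC48 B and 25.5 CPM in wild type B, against 13.96 and 13.0 CPM in 35S:NPC48 A and D and 18.6 and 13.9 CPM in wild type A and D. It had the smallest p of the class, with a log2 difference of 0.81 ± 0.16 and an adjusted p of 0.00786. Both B libraries were the highest, and wild type A came next. MCM2 (AT1G44900) stood at 30.5 CPM in 35S:NPC48 B and 33.4 CPM in wild type B, against 24.7 and 19.1 CPM in 35S:NPC48 A and D and 24.0 and 21.1 CPM in wild type A and D. MCM5 (AT2G07690) stood at 27.2 CPM in 35S:NPC48 B and 31.7 CPM in wild type B, against 20.14 and 18.2 CPM in 35S:NPC48 A and D and 24.4 and 17.8 CPM in wild type A and D. MCM7 (AT4G02060) stood at 28.2 CPM in 35S:NPC48 B and 30.7 CPM in wild type B, against 19.5 CPM in both 35S:NPC48 A and D and 24.8 and 17.0 CPM in wild type A and D. For these 3 subunits too the B libraries were the 2 highest, with log2 differences of 0.53 ± 0.14, 0.55 ± 0.15 and 0.55 ± 0.16 and adjusted p of 0.0301, 0.0330 and 0.0411. MCM6 followed at 0.59 ± 0.18 with an adjusted p of 0.0445, at 14.5 CPM in 35S:NPC48 B and 18.0 CPM in wild type B against 9.23 to 13.6 CPM in the other 4 libraries. MCM4 was not called, at 0.50 ± 0.18 with an adjusted p of 0.0794.

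PCNA1 (AT1G07370) stood at 29.9 CPM in 35S:NPC48 B and 26.8 CPM in wild type B, against 19.3 and 15.5 CPM in 35S:NPC48 A and D and 19.3 and 17.3 CPM in wild type A and D. PCNA2 (AT2G29570), the other copy of the clamp gene, stood at 41.4 CPM in 35S:NPC48 B and 36.0 CPM in wild type B, against 30.7 and 28.7 CPM in 35S:NPC48 A and D and 27.6 and 28.3 CPM in wild type A and D. The groups did not overlap for either gene. Their log2 differences were 0.67 ± 0.14 and 0.42 ± 0.11, with adjusted p of 0.0116 and 0.0303. Of the licensing factors, CDC6 (AT2G29680) was called at 0.88 ± 0.26 (adjusted p 0.0437), the largest difference of the class. CDT1A (AT2G31270) had 0.58 ± 0.18 with an adjusted p of 0.0528, and its libraries overlapped, because wild type A reached 19.3 CPM against 19.0 CPM in 35S:NPC48 B. CYCA3;1, a cyclin of early S phase, had 0.54 ± 0.31 and was not called.

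In G2 and mitosis the largest difference was that of CDKB2;2 (AT1G20930), a B-type kinase of mitotic cells. It stood at 42.1 CPM in 35S:NPC48 B and 38.8 CPM in wild type B, against 16.8 and 17.5 CPM in 35S:NPC48 A and D and 16.5 and 17.1 CPM in wild type A and D. The 4 libraries of A and D lay between 16.5 and 17.5 CPM and both B libraries lay far above them, with a 2.38-fold difference (log2 1.25 ± 0.12, adjusted p 0.000127). Its relative CDKB2;1 (AT1G76540) stood at 64.0 CPM in 35S:NPC48 B and 54.6 CPM in wild type B, against 40.2 and 42.2 CPM in 35S:NPC48 A and D and 33.8 and 41.6 CPM in wild type A and D. The log2 difference was 0.58 ± 0.12 with an adjusted p of 0.0108, and the B libraries were again the highest. CDKB1;1 was called at 0.84 ± 0.21 (adjusted p 0.0205) and CDKB1;2 was not, at 0.73 ± 0.24 (adjusted p 0.0611).

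All 4 members that are cyclins of type B1, which drive entry into mitosis, were called. CYCB1;3 (AT3G11520) stood at 25.5 CPM in 35S:NPC48 B and 28.1 CPM in wild type B, against 12.9 and 13.2 CPM in 35S:NPC48 A and D and 13.6 and 12.6 CPM in wild type A and D. B was 2.05-fold higher, with no overlap (log2 1.03 ± 0.13, adjusted p 0.000717). CYCB1;4 (AT2G26760) stood at 36.3 CPM in 35S:NPC48 B and 32.4 CPM in wild type B, against 16.6 and 20.7 CPM in 35S:NPC48 A and D and 18.7 and 20.6 CPM in wild type A and D. CYCB1;1 (AT4G37490), widely used as a marker of dividing cells, stood at 14.5 CPM in 35S:NPC48 B and 14.1 CPM in wild type B, against 8.95 and 7.51 CPM in 35S:NPC48 A and D and 8.01 and 7.96 CPM in wild type A and D. The B libraries of both genes were the highest, with log2 differences of 0.83 ± 0.14 (adjusted p 0.00373) and 0.82 ± 0.16 (adjusted p 0.00669). CYCB1;2 was called at 0.76 ± 0.16 with an adjusted p of 0.0117. Of the 4 members that are cyclins of type B2 only CYCB2;4 was called, at 0.67 ± 0.19 with an adjusted p of 0.0356. CYCB2;1, CYCB2;2 and CYCB2;3 had log2 differences of 0.51, 0.65 and 0.53, with adjusted p of 0.145, 0.0524 and 0.0545. The A cyclins CYCA1;1 and CYCA2;3 were called at 0.83 ± 0.18 and 0.84 ± 0.20.

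KNOLLE (AT1G08560), the syntaxin that fuses vesicles into the cell plate at cytokinesis, stood at 57.0 CPM in 35S:NPC48 B and 55.1 CPM in wild type B, against 35.7 and 34.3 CPM in 35S:NPC48 A and D and 34.6 and 32.0 CPM in wild type A and D. The 2 groups of libraries were far apart, and the log2 difference was 0.72 ± 0.11 with an adjusted p of 0.00232. Of the 20 called members, 9 overlap another annotated gene in TAIR10.1, and the strand setting of the counting is not given in the sources used here. Their 10 partner genes include 2 that were higher in B themselves, AT2G29560 beside PCNA2 and AT4G02050 beside MCM7, so the values of these 2 members are less certain. CYCD6;1 overlaps AT4G03260, which averaged 148 CPM. The partner of CDKB2;2, AT1G20925, averaged 0.0709 CPM.

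**Figure D2:**
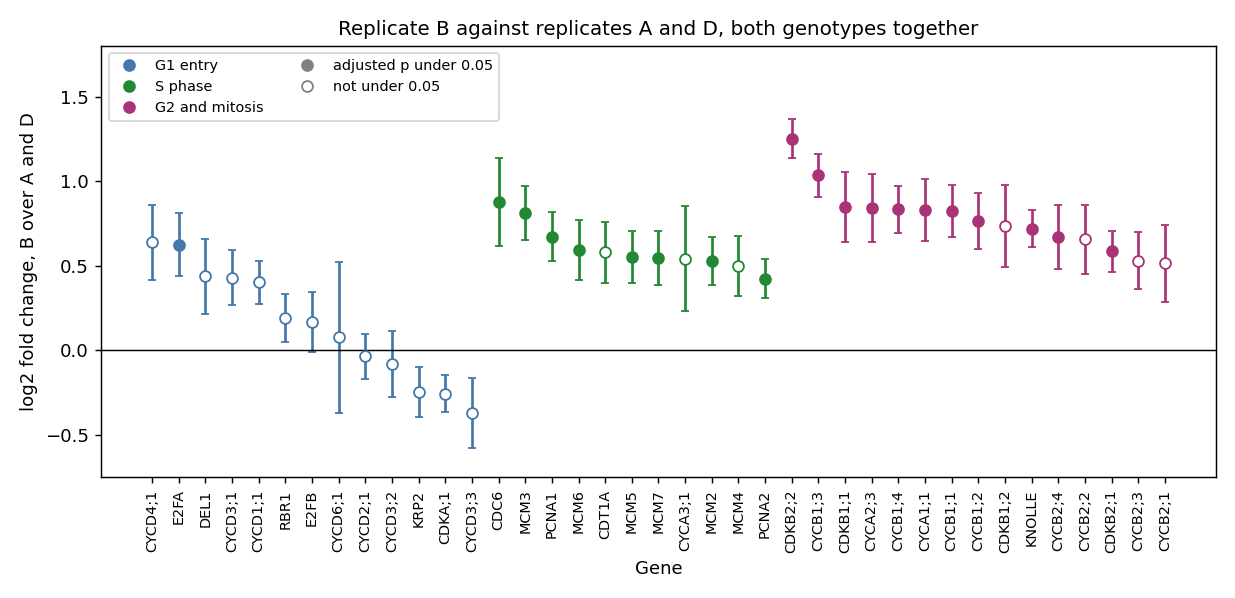
Log2 fold change of replicate B over replicates A and D (vertical axis) for each member (horizontal axis), from the fit over all 6 libraries. Bars are 1 standard error and filled points had an adjusted p under 0.05. All points of S phase (green) and of G2 and mitosis (purple) lie above 0, whereas those of G1 entry (blue) run from 0.64 to −0.37.

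The difference between B and the other replicates was also taken within each genotype. For the mitotic class the median log2 difference was 0.76 both within 35S:NPC48 and within wild type, and for the S-phase class it was 0.52 within 35S:NPC48 and 0.58 within wild type. In the test of the difference between genotypes, edgeR called 0 of 39 members and 0 of 19608 genes, with 0 members and 172 genes at an unadjusted p under 0.05, and DESeq2 called 0 genes. The smallest unadjusted p of a member was 0.0958, for CYCB2;3. With 1 B library per genotype, this test can miss differences. Within a single genotype, where that B library has no replicate, 3 members were called in 35S:NPC48 (2.50% of genes higher) and 2 in wild type (2.95%). CDKB2;2 and CYCB1;3 were among them in both genotypes, and CYCB1;4 in 35S:NPC48. Leaving out wild type B left 3 members called, leaving out 35S:NPC48 B left 2, and leaving out wild type D left 13.

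With the letter as a block, which uses the pairing of the libraries, 25 members were higher in B and 0 lower, against 14.2% of all genes higher and 12.2% lower. The contrasts of B over D and B over A share the B libraries. B over D called 20 members (11.3% of genes higher), among them 9 of 11 S-phase and 10 of 15 mitotic genes. B over A called 13 members (10.8% of genes), among them 3 of 11 S-phase and 9 of 15 mitotic genes. The median log2 difference of the S-phase class was 0.71 over D and 0.44 over A, while that of the mitotic class was 0.77 and 0.76. In the direct contrast of D over A, edgeR called 0 members and 0 of 19608 genes, with 4 members and 2659 genes at an unadjusted p under 0.05. In the fit over both genotypes, all 6 MCM genes were lower in D than in A, by log2 values from −0.43 for MCM4 to −0.27 for MCM2. The S-phase class had a median of −0.27, against 0.01 for all genes. Of the 26 genes of S phase and mitosis, 22 stood lower in D than in A within wild type and 12 within 35S:NPC48. Each of these counts sets a single library against a single library. Whether the genotypes differ in it was not tested, and the share of all tested genes was not taken. 35S:NPC48 A was the shallowest library, and it and wild type D had the highest summed levels of shoot genes. The 4 members at an unadjusted p under 0.05 were MCM4, RBR1 and CYCB1;2, lower in D, and KRP2, higher in D.

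Other genes of the pathway were set beside the members in the same comparison, in which all tested genes had a median log2 difference of −0.01. Of all tested genes, edgeR called 10.5% higher in B and 9.27% lower. Of 29 further genes of mitosis and cytokinesis tested, 15 were called higher in B and 0 lower, with a median log2 difference of 0.61. They included CCS52B (0.81), an activator of the anaphase-promoting complex, its partner activator CDC20.1 (0.78), MAP65-3 (0.87) of the cytokinetic microtubule array, the spindle checkpoint gene MAD2 (0.75) and the spindle assembly gene TPX2 (0.69). CDC20.1 has a close neighbouring copy, CDC20.2, and reads of the pair may have been split. Of 13 replication-coupled histone genes 11 were called higher, with a median of 0.58 and a largest difference of 0.89. The 5 with the smallest p were the H3.1 genes AT5G10400 (0.75), AT5G65360 (0.71) and AT1G09200 (0.78) and the H4 genes AT5G59970 (0.71) and AT2G28740 (0.54). Near-identical copies make single histone genes uncertain. Of 40 further replication genes 5 were called higher, a share near that of all genes, and 0 lower, with a median of 0.31. DESeq2 called 4 of them higher and limma-voom 6. Those called by edgeR included TSO2 (0.72), a small subunit of ribonucleotide reductase, and MCM10 (0.79). The others were ORC6 (0.91) of the origin recognition complex, CDT1B (0.95) and FAS2 (0.71) of chromatin assembly factor CAF-1. Of 28 further genes of G1 and S control, SMR3 (AT5G02420) was called higher (0.60) and SIM was called lower (−0.52), with a median of 0.16. Of all 110 tested genes in these 4 lists, 2 were lower at an unadjusted p under 0.05, and edgeR, DESeq2 and limma-voom each called 1 lower.

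Markers of other cells moved with replicate B as well. For root hair markers, edgeR called 5 of 6 genes higher, against 10.5% of all tested genes, with a median log2 difference of 0.84. Their summed level was 391 and 471 CPM in 35S:NPC48 B and wild type B, against 183 to 283 CPM in the other libraries. Lateral root primordium markers were called lower for 3 of 6 genes, against 9.27% of all tested genes, with a median of −0.81. They summed to 22.1 and 18.2 CPM in 35S:NPC48 B and wild type B, against 28.0 to 39.9 CPM in the others. Of 10 root meristem markers edgeR called 0 higher and 1 lower, SCR (−0.46), with a median of 0.03 and a range from −1.12 to 0.63. At an unadjusted p under 0.05 in edgeR, 2 of these markers were higher and 3 lower. DESeq2 and limma-voom also called 0 higher and 1 lower. Their summed level was 146 and 139 CPM in 35S:NPC48 B and wild type B, against 149 to 173 CPM in the others. Of 4 root cap markers 0 were called by edgeR, DESeq2 or limma-voom and 0 had an unadjusted p under 0.05, with a median of 0.26. Of 6 endodermis markers CASP5 was called lower (−1.42), with a median of −0.31. Among 4 root tissue markers 1 was called higher and 1 lower, and among 5 tested shoot genes 0 were called higher and 1 lower. The part of the phosphate response, of these cell types and of the growth of replicate B in the differences of the cell cycle genes was not tested.

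Between genotypes, the cell cycle genes were tested gene by gene, and no test of them as a group was run. Of 39 members, edgeR with genotype as the single term called 0 higher and 0 lower in 35S:NPC48, where 0 genes were higher and 0.0102% lower. At an unadjusted p under 0.05 there were 1 member and 695 genes, and limma-voom called 0 members. DESeq2 called 1 member lower, CYCB2;3, which was also the member with an unadjusted p under 0.05 in edgeR. The median log2 difference of 35S:NPC48 over wild type was −0.03 for G1 entry, −0.13 for S phase and 0.05 for G2 and mitosis, against 0.01 for all tested genes. Leaving CYCB2;3 aside, the other 38 ranged from −0.65 for CYCD6;1 to 0.19 for CYCA1;1. Their standard errors ran from 0.13 to 0.46, and B contributes to this spread in both genotypes. Without both B libraries, 0 members were called and the medians were −0.10, −0.11 and −0.02.

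Within the letters the class medians differed in size and sign, each resting on 1 library per genotype. In A, 35S:NPC48 was lower by medians of −0.14 for G1 entry, −0.34 for S phase and −0.19 for G2 and mitosis. In B the medians were −0.07, −0.17 and 0.01, and in D 0.08, 0.03 and 0.05. The largest single differences in A were those of CYCD6;1 (−1.44), CYCB2;3 (−1.11), CYCA3;1 (−1.10) and CDC6 (−0.99), which rest on the shallow 35S:NPC48 A library. That library and wild type D were the ones with the highest summed level of shoot genes, whose part in these differences was not tested. CYCA3;1 stood at 4.72, 1.92 and 4.45 CPM in 35S:NPC48 B, A and D, against 5.31, 4.23 and 2.86 CPM in wild type B, A and D. Its sign turned in D, where 35S:NPC48 was higher, and it is named after its values were seen. In D the largest difference was that of CDKB1;2 at 0.92, with opposite signs in A (−0.34) and B (−0.15).

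Of 39 members 4 were higher in 35S:NPC48 in all 3 letters, against 17.0% of tested genes, and 4 were lower in all 3, against 15.7%. The higher ones were PCNA2, CDKB2;1, CDKB2;2 and KNOLLE, and the lower ones RBR1, E2FA, KRP2 and CYCB2;3. These shares were not above those of all genes. Groups did not overlap for 1 member, CYCB2;3, where 3.82% of tested genes were lower without overlap and 3.94% higher.

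**Figure D3:**
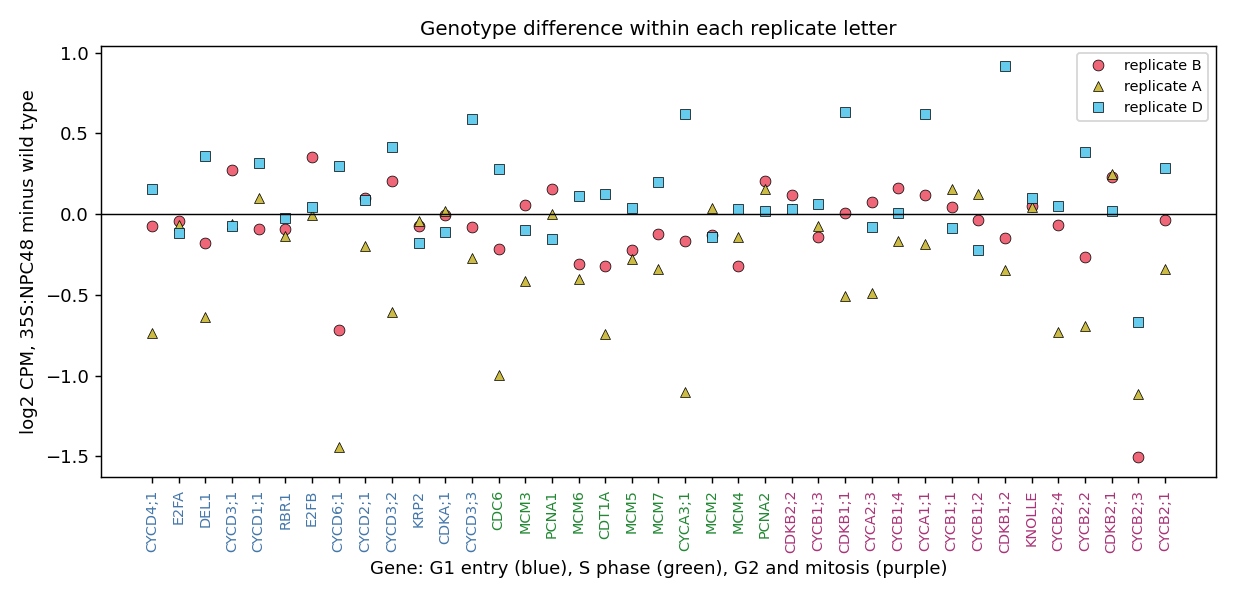
Difference in log2 CPM, 35S:NPC48 minus wild type, for each member (horizontal axis) within replicates B (circles), A (triangles) and D (squares), with 1 library per genotype in each. Most members scatter on both sides of 0, and CYCB2;3 lies below it in all 3 letters, at −1.51, −1.11 and −0.67.

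CYCB2;3 (AT1G20610), a mitotic cyclin of type B2 on chromosome 1, was the member with the largest genotype difference, and it is singled out after its values were seen. It stood at 16.6, 13.7 and 15.2 CPM in 35S:NPC48 B, A and D, against 47.4, 29.9 and 24.2 CPM in wild type B, A and D. The means were 15.2 ± 1.43 CPM in 35S:NPC48 and 33.8 ± 12.1 CPM in wild type (SD, n = 3 each). All 3 libraries of 35S:NPC48 lay below all 3 of wild type, at 35.1%, 46.0% and 62.7% of the wild-type level in B, A and D. The log2 difference was −1.15 ± 0.25 with an adjusted p of 0.332 in edgeR's quasi-likelihood test with genotype alone, and it was not called. With the replicate letter as a block it was −1.11 ± 0.16 with an adjusted p of 0.0196, and CYCB2;3 was the 1 member among the 0.367% of genes called lower, while 0.841% were called higher. DESeq2 without the block gave an adjusted p of 0.0103 and limma-voom 0.475. Leaving out both B libraries gave a log2 difference of −0.90 ± 0.19 and an adjusted p of 0.0955 with the block, and the call was lost. Leaving a stretch of raised genes on chromosome 3 out of the adjustment, a choice made after seeing the data, gave an adjusted p of 0.0578 with the block.

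The other B2 cyclins among the members had genotype differences of −0.05 for CYCB2;1, −0.17 for CYCB2;2 and −0.22 for CYCB2;4, and none was called. Within wild type CYCB2;3 was higher in B than in A and D, by a log2 difference of 0.81, and within 35S:NPC48 by 0.20, but the difference between these values had an unadjusted p of 0.0958. Of the 8 neighbouring genes in the files, 4 on each side, 6 were tested and 0 were called with the block by edgeR, 2 having an unadjusted p under 0.05, with adjusted p from 0.430 to 0.893. AT1G20590 and AT1G20600, the nearest on one side, were at 0 counts in all 6 libraries, and CAT3, the nearest on the other, had a blocked log2 difference of −0.15. How reads with several matches were counted is not given in the sources used here, so reads shared with related cyclins could have been split.

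**Figure D4:**
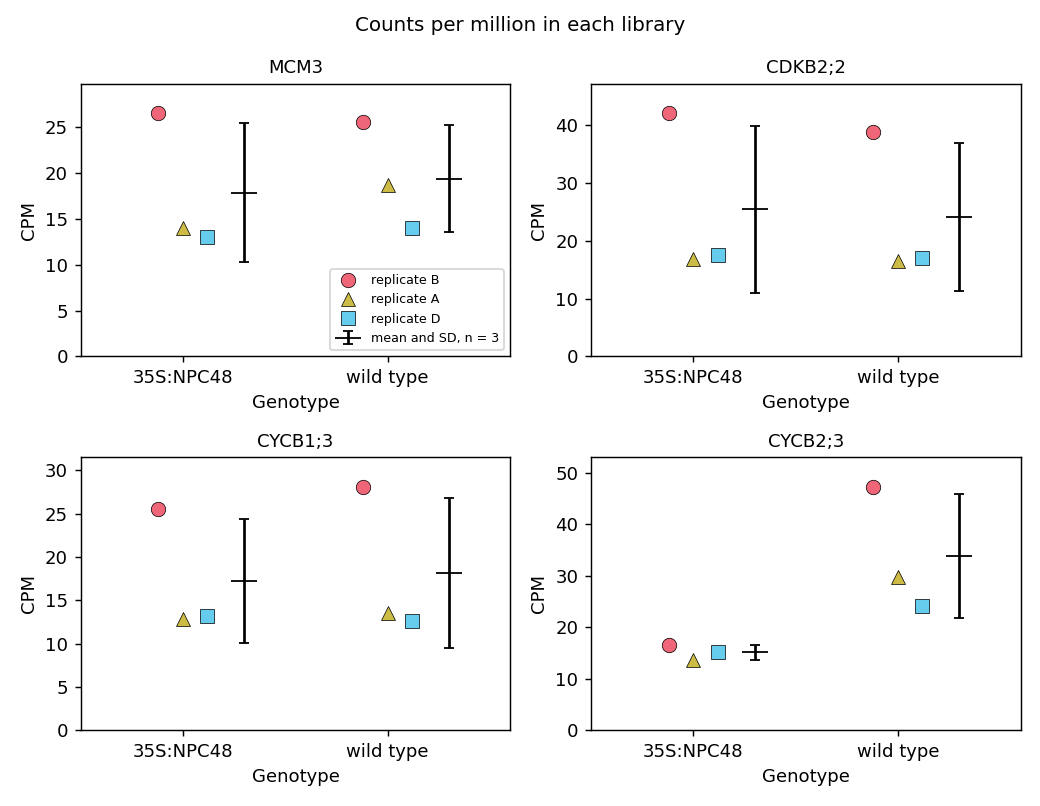
CPM (vertical axes, from 0) in each library of 35S:NPC48 and wild type for MCM3, CDKB2;2, CYCB1;3 and CYCB2;3. Circles, triangles and squares are replicates B, A and D, and the bar beside them is the mean with the SD of 3 libraries. In the first 3 genes the B libraries of both genotypes stand above the rest, and in CYCB2;3 all 35S:NPC48 libraries, at 13.7 to 16.6 CPM, stand below those of wild type.

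Among the other pathway genes, edgeR with genotype alone called 0 of 110 tested genes in the 4 lists, with 2 at an unadjusted p under 0.05, and DESeq2 and limma-voom called 0. With the block 1 was called, DEL3 (AT3G01330), an atypical E2F, with a log2 difference of 0.95 ± 0.15 and an adjusted p of 0.0271. Leaving out both B libraries gave 0.82 ± 0.23 and an adjusted p of 0.314 with the block, and the call was lost. DEL3 stood at 20.4, 11.7 and 13.8 CPM in 35S:NPC48 B, A and D, against 9.05, 7.48 and 6.91 CPM in wild type B, A and D. It lies within a stretch of chromosome 3, from AT3G01280 to AT3G03010, in which 122 of 168 tested genes were called higher in 35S:NPC48 with the block, and its relatives DEL1 and DEL2 were not called.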

How the data were processed

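RNA was extracted from roots and sequenced as polyA libraries with TruSeq RNA chemistry, per the labels' protocols. Read counts per gene were deposited by the authors as whole numbers, 1 table per library. The submitters' processing notes name Trimmomatic 0.36, STAR 2.5.2b, featureCounts of Subread 1.6.5 and the TAIR10 genome, without roles or settings. Which gene models were used, whether strand was read and how multi-mapping reads were handled is not stated in these sources. Reads of overlapping genes or close copies may therefore be shared between them.

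From these counts, edgeR 4.0.16 (R 4.3.3) was run with filterByExpr (minimum count 10, minimum total 15), TMM scaling, quasi-likelihood fits over all 6 libraries and F tests, with Benjamini-Hochberg adjustment over all 19608 tested genes and a threshold of 0.05. Genotype was tested alone, replicate B against A and D with genotype as a term, their interaction in a fit of its own, and D against A with the letter as a block. Standard errors are those of the fitted log2 fold changes, CPM use TMM-scaled library sizes, and log2 CPM have a prior count of 2. DESeq2 1.42.0, limma-voom (limma 3.58.1), RLE scaling, no filter, the replicate block and left-out libraries were alternatives. The scripts were tested on simulated data.

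The members, the phase classes and all gene lists were chosen with earlier results of these data known. Values in all libraries are given for up to 6 called members per class, by smallest p, and for CYCD3;1, MCM2, PCNA1, CYCB1;1 and KNOLLE. Up to 5 called genes per further list are named. Same-numbered libraries deviated together from their genotype means over all tested genes, with r of 0.53, 0.83 and 0.37 for A, B and D, so the numbers were taken to pair the libraries. A and D are hardly told apart by this check (r of 0.39 and 0.34 across them). No 2 libraries of the same genotype agreed within counting noise, and pairs across genotypes were not checked for this. Promoters were read from assembly TAIR10.1, in which 28494 of 29613 gene IDs and all 39 members were matched. NPC48 itself was not analysed here, and its overexpression is therefore unchecked.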

Additional observations from a re-analysis of the deposited data

How the results depend on the processing

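The 20 members called higher in replicate B, 19 of S phase and mitosis and 1 of G1 entry, were followed over 15 alternatives each. Of 300 tests 197 stayed past the threshold, 103 did not and 0 turned in sign. CDKB2;2 and CYCB1;3 passed under all 15. These members were chosen by the main test and the alternatives reuse its libraries, so the kept sign is not separate evidence. Members not called were not followed in this way. Scaling, filter, tool and block gave 21 to 25 members higher and 0 lower, and B over D gave 20. B over A gave 13, B within 35S:NPC48 3 (733 genes called in place of 3882) and B within wild type 2 (955 genes). Leaving out 1 library gave 2 to 20 members and 712 to 4024 genes. Without 35S:NPC48 B there were 2 members and 924 genes, without wild type B 3 members and 712 genes, and without wild type D 13 members. Some of these fits hold fewer libraries of B, and the cause of the lost calls was not tested.

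For genotype, the replicate block pairs the libraries and raised the genes called to 237 in place of 2 and the members lower to 1, CYCB2;3. The genes called numbered 153 with DESeq2, 195 with a term for replicate B, 336 with DESeq2 and the block, 36 with the block once the chromosome 3 stretch was left out of the adjustment, and 0 with limma-voom. Without the block, leaving out that stretch gave 2. With the block they were 191, 118 and 1938 without replicate 1, 2 or 3, and without the block 0 to 46, and leaving out 1 library gave 0 to 2. Members lower numbered 1 with DESeq2, with and without the block, and with the term for B, and 0 to 2 with the block without 1 replicate. The block changed no other member's call between genotypes. The interaction and the contrast of D over A called 0 genes in edgeR under every alternative run. Depth limits CYCD6;1 most, and 35S:NPC48 A had the fewest counts of all libraries.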
